A study of Mus musculus with 15 samples.

Results

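The response of cortical parvalbumin neurons to thyroid hormone was read 24 h after a hormone injection in mice that had been fed propylthiouracil (PTU), a drug that blocks thyroid hormone synthesis. The libraries were chosen by their titles: 4 of mice given PTU and then the hormone (PTU_TH, replicates 1 to 4) and 3 of mice given PTU alone (PTU, replicates 5 to 7), 7 of the 15 libraries of the study. All 7 mice were adults of the genotype PvCre ROSA-tomato-lox Thra+/+, so both groups carried the Cre driver, the reporter and wild-type Thra. PTU was given in food pellets for 2 weeks and the hormone was injected into the peritoneum 24 h before the cortex was taken. The hormone used, its dose, the sex of the mice and any vehicle injection of the PTU group were not stated in the labels. The reporter is a nuclear fluorescent protein that is switched on by Cre from the parvalbumin gene, so the nuclei were those of cells with a history of Pvalb expression. RNA came from nuclei of 1 cortex per library, and the titles number separate mice. The remaining libraries, used here only beside the response, were 4 of untreated mice of the same genotype (Ctrl) and 4 of littermates of the genotype PvCre ROSA-tomato-lox ThraAMI/+ (Mut), which express the dominant negative receptor TRalpha1L400R.

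Thyroid hormone acts through the nuclear receptors encoded by Thra and Thrb, which sit on DNA with or without the hormone. Without it they recruit corepressors such as the product of Ncor1, and with it they exchange these for coactivators, so that direct target genes such as Hr and Klf9 are transcribed. Parvalbumin neurons are fast-spiking inhibitory cells that rely on Kv3 potassium channels, calcium buffering and a perineuronal net, and they are among the cortical cells most affected by lack of the hormone.

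The 7 libraries held 12957838 to 19141683 counts over 19618 to 20586 genes. They differed within groups in how much of the library came from long genes. Genes longer than 100 kb took 39.8% of the counts in PTU replicate 5 against 25.8% and 25.9% in PTU replicates 6 and 7. In PTU_TH they took 34.2%, 40.8%, 28.5% and 25% in replicates 1 to 4. The groups overlapped on this measure (30.5% ± 8.04 in PTU and 32.1% ± 6.91 in PTU_TH, SD). The 3 libraries with the highest shares, PTU replicate 5 and PTU_TH replicates 1 and 2, had 0 counts in the Y-linked genes Ddx3y, Uty, Kdm5d and Eif2s3y, whereas the other 4 had 292 to 343 CPM (counts relative to the library's total) in their sum. The main component of the differences within groups held 56.6% of that variance and followed the long-gene share (Pearson's r = 0.996 in size over these 7 libraries, a description in which both are read from the same counts). The 2 kinds of library and the presence of Y-linked counts cannot be told apart. The response was therefore tested by edgeR's quasi-likelihood test both without a term for this structure and with 1 added factor, the log2 ratio of counts in genes over 100 kb to counts in all others.

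**Figure D1:**
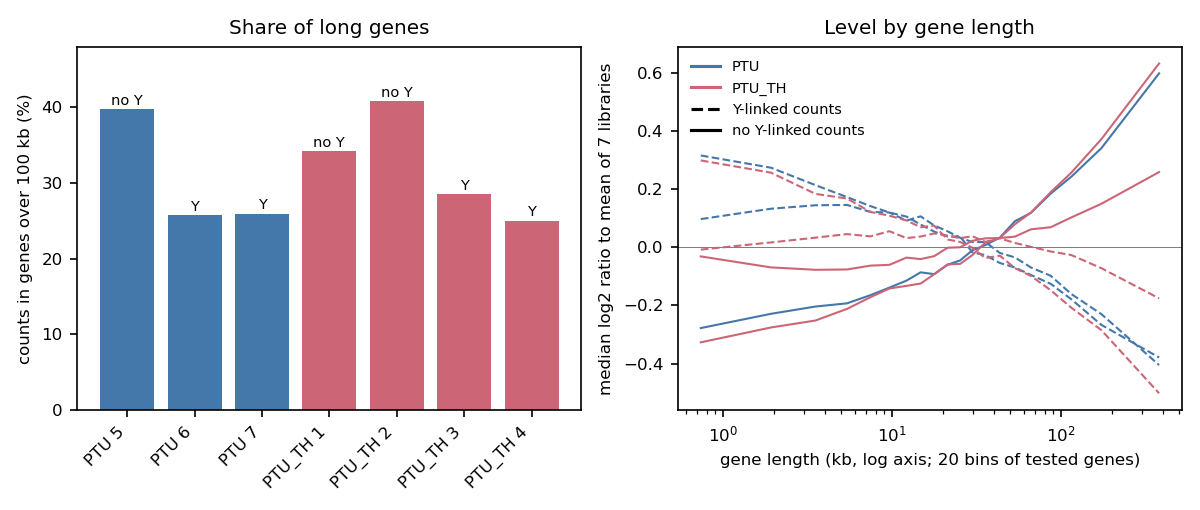
Share of counts in genes over 100 kb in each of the 7 libraries (left, percent) and the median deviation of each library from the mean of all 7 in 20 bins of gene length (right, log2, gene length in kb on a log axis). PTU replicate 5 and PTU_TH replicates 1 and 2 lie above 34% and bend upward with gene length, and the other 4 lie at or below 28.5%.

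Markers of parvalbumin neurons were present throughout, summing to 7137 to 8857 CPM over 12 genes in PTU and 7346 to 8655 CPM in PTU_TH. Sums for other cell types were low and overlapped between the groups. They were 537 to 615 CPM in PTU and 529 to 614 CPM in PTU_TH for 17 excitatory neuron genes, of which Neurod1 was at 0 in every library. For 13 astrocyte genes they were 86.7 to 136 and 69.7 to 126 CPM, with Gfap at 0, and for 14 oligodendrocyte genes 134 to 232 and 82.2 to 232 CPM. Of 12 microglial genes, which summed to 69.1 to 98.7 and 55.8 to 99.2 CPM, P2ry12 was at 0. The cytoskeleton genes Nefl and Tubb3 and the respiratory chain gene Cox4i1 were also at 0 in every library. A 0 of a marker therefore cannot be read as absence of a cell type, and its cause was not tested. Of 13 genes of other interneurons the sums were 122 to 180 and 84.3 to 173 CPM. The median log2 difference between PTU_TH and PTU with the factor was −0.09 for excitatory, −0.23 for astrocyte, −0.19 for oligodendrocyte, −0.20 for other interneuron, −0.086 for endothelial and mural and 0.17 for microglial markers, and the part of these cells in the results was not tested. In such pooled nuclei, fewer nuclei of a kind and less RNA per nucleus cannot be told apart.

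Without the factor, 43 of 15288 genes tested changed (0.281%). Of these 39 rose (0.255%) and 4 fell (0.0262%), while 1126 genes reached an unadjusted p under 0.05. With the factor, 1033 genes passed (6.76%), of which 637 rose (4.17%) and 396 fell (2.59%), and 2921 reached an unadjusted p under 0.05. All 43 were among the 1033, and each of the 1033 had the same sign in both fits. The factor lowered the common biological coefficient of variation from 23.0% to 9.75%, and its own slope passed the test for 6297 genes (41.2%). Most of the added differences were small. Among the genes that rose with the factor, the median fold was 1.36, with 85 genes at 2-fold (1 on the log2 scale) or more, 174 between 0.5 and 1 on the log2 scale and 378 below 0.5. Among those that fell, the median difference was 1.35-fold in size, with 29, 123 and 244 genes in the same classes. The CPM ranges of PTU and PTU_TH were apart for 43 of the 43 genes called without the factor and 514 of the 1033 called with it, against 7.25% of all genes tested (3.43% higher and 3.82% lower).

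**Figure D2:**
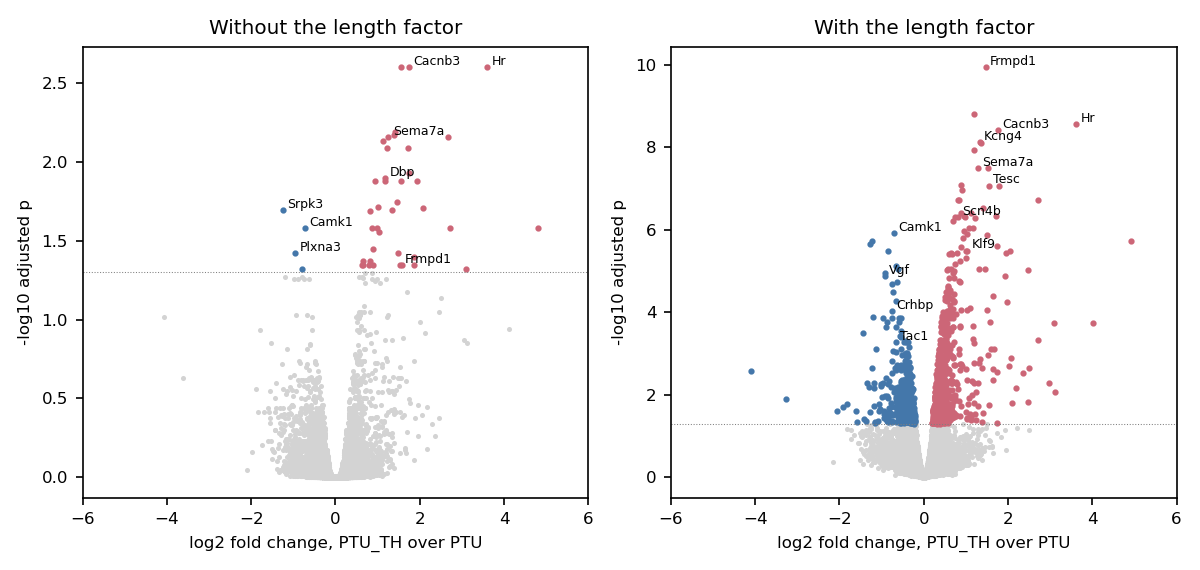
Log2 fold change of PTU_TH over PTU (x axis) against −log10 of edgeR's adjusted p (y axis) for 15288 genes, without the factor (left) and with it (right), with called genes in colour. Hr lies farthest to the right among the labelled genes in both panels, and 43 genes are coloured on the left and 1033 on the right.

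The signs of the called genes were also read within each kind of library. Among the 4 libraries with Y-linked counts, tested alone as 2 against 2, 1031 of 1031 genes called with the factor kept their sign, against 12729 of 15059 of all genes. Among the 3 without, 2 of PTU_TH against 1 of PTU, 1032 of 1033 did, against 11021 of 15146. The genes were called from these same libraries, which largely fixes their signs there, so the counts support nothing further. PTU replicate 5, the sole PTU library with a high long-gene share, had the most weight: without it 249 genes rose and 89 fell with the factor. In all 7 omissions of 1 library, 290 of the 1033 genes were called (223 higher and 67 lower), and without the factor 4 were (Hr, Cacnb3, Tesc and Klhl33, the last chosen after its values were seen). Of 80 genes taken by the naming rule and called with the factor, 50 were called in all 7 omissions. With the presence of Y-linked counts as the factor in place of the long-gene share, 241 genes rose and 94 fell, and 32 of the 80 lost their call. These 32 were the channel and calcium genes Kcnc1, Kcna1, Kcnj6, Cacna1a, Ryr2 and Atp2b2, the matrix genes Has3, Bcan, Hapln4, Itga9 and Lama3, and the synaptic genes Gabrd, Gabrb1, Gria1, Grik3, Grm7, Rims1, Syt2 and Unc13b. They further held Jun, Nr4a1, Ier5 and Gadd45b of the immediate early list, and Nefh, Ina, Cck, Cirbp, Ncoa1, Ndufa1, Scd2, Hsph1 and Dnah7b. The log2 differences of all 32 kept their sign. Of all genes taken by the naming rule 19 passed without the factor, and these were Hr, Dbp, Sema7a, Flywch2, Cacnb3, Tesc, Frmpd1, Acan, Dab2, Ung, Slc35g1, Mrvi1, Trib1, Trim67, Sned1, Camk1, Plxna3, Srpk3 and Izumo4. A p of the injection given below without a remark is that with the factor. Shares of gene lists called are set beside those of all genes tested. Level, and with it the power to call a gene, was not held fixed in them. The median level was 75 CPM for genes called higher with the factor, 48.7 CPM for those called lower and 24.1 CPM for all tested.

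Most genes listed as induced by thyroid hormone rose. The list was chosen with earlier results of these data known, so its share is a description and not independent support. Of 17 tested, 11 rose with the factor (64.7%, against 4.17% of all genes) and 5 without it (against 0.255%), and the list's median log2 difference was 0.62 in both fits, where the median over all genes was −3.31e-05 with the factor and −0.00293 without it. Hr, a corepressor of nuclear receptors, measured 2.52, 5.94 and 3.29 CPM in PTU replicates 5 to 7 and 46.3, 44.9, 43.1 and 49.5 CPM in PTU_TH replicates 1 to 4. Every injected mouse lay far above every PTU mouse, a 12.3-fold difference (log2 3.62 ± 0.19 SE with the factor, edgeR adjusted p = 2.71e-09), and the 4 injected mice were close to each other. Klf9, a Krüppel-like transcription factor, measured 24.3, 30.3 and 34.7 CPM in PTU and 60.3, 40.9, 55.4 and 75.5 CPM in PTU_TH. Its groups did not overlap either, but it passed only with the factor (log2 1.03 ± 0.11 SE, edgeR adjusted p = 3.19e-06; 0.99 ± 0.16 and 0.0556 without). Within both groups Klf9 was lowest in the library richest in long genes, PTU replicate 5 and PTU_TH replicate 2, and its slope on the factor was −0.37.

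Dbp, a PAR bZIP transcription factor of the circadian output, rose from 23.8 ± 5.26 CPM (SD, n = 3) to 52.2 ± 3.43 CPM (n = 4), a log2 difference of 1.21 with the factor (edgeR adjusted p = 5.16e-07). Of its exonic bases 18.0% are shared with another gene, so its counts are uncertain. Dbp also belongs to the circadian list, of whose 17 tested genes 3 rose with the factor (17.6%, against 4.17% of all genes) and Dbp alone without it. The others were Hlf, a second PAR bZIP factor (log2 0.59, edgeR adjusted p = 0.000125; 0.110 without the factor), and Nr1d2, a repressor of the clock (0.40, edgeR adjusted p = 0.000675; 0.233 without). Sema7a, a membrane-anchored semaphorin, measured 30.6, 39.5 and 35.1 CPM in PTU and 80.8, 67.1, 78.3 and 101 CPM in PTU_TH (log2 1.28 with the factor, edgeR adjusted p = 3.24e-08). Flywch2 rose from 4.83 ± 0.99 to 15.8 ± 0.73 CPM (log2 1.73, edgeR adjusted p = 2.54e-06). The remaining members called with the factor were Shh, the secreted morphogen, Itga7, a laminin-binding integrin subunit, Abcd2, a peroxisomal fatty acid transporter that also passed without it, the glutaminase gene Gls2, the neurofilament gene Nefh and Stac2. Of 8 genes listed as repressed by the hormone, 3 could be tested. Cirbp, a cold-inducible RNA-binding protein, alone was called lower with the factor (33.3% of those tested, against 2.59% of all genes). Its log2 difference was −0.35 (edgeR adjusted p = 0.0443). That call was lost in 4 of 7 omissions, with a p of up to 0.225 without PTU_TH replicate 4.

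**Figure D3:**
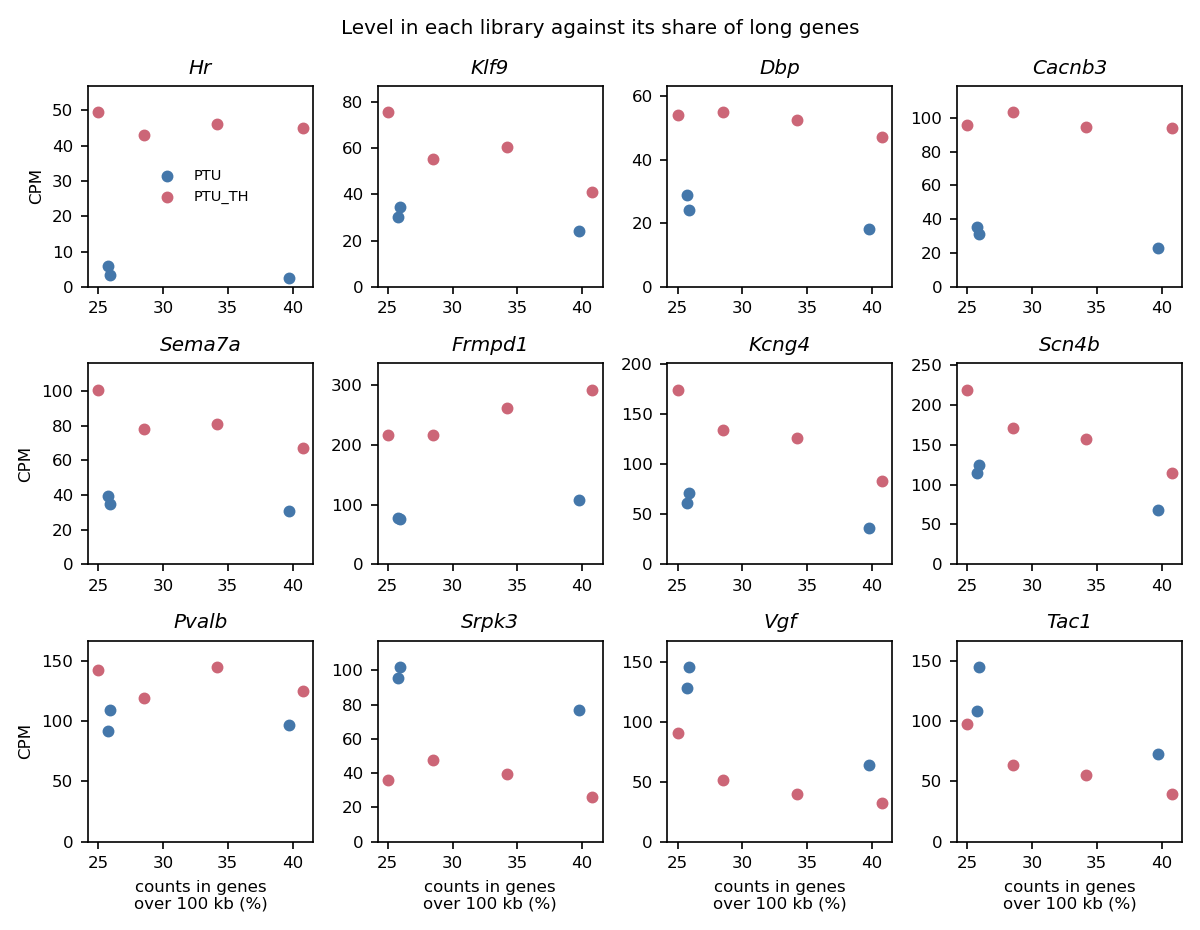
CPM of 12 genes (y axes, each from 0) against the share of counts in genes over 100 kb (x axis, percent) in the 3 PTU and 4 PTU_TH libraries, 1 point per mouse. Hr and Cacnb3 are flat along the x axis with the groups apart, whereas Kcng4, Scn4b, Vgf and Tac1 fall along it in both groups and Frmpd1 rises, with the groups apart at a like share.

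The promoters of the induced genes were searched for the receptor's core hexamer, AGGTCA on either strand, in windows of 300 bases that span the start site (RefSeq, GRCm38.p6), which matched 10735 of the 15288 genes. The hexamer was present for 14.6% of all genes, for 21.2% of those called higher without the factor (7 of 33), for 17.7% of those called higher with it (82 of 463) and for 12.2% of those called lower (38 of 311). A gene can have more than 1 window, which raises its odds of a match. Per window the share was 12.3% over all genes (1695 of 13817). It was 16.0% for those called higher without the factor (8 of 50). With the factor it was 13.2% for those called higher (91 of 691) and 9.7% for those called lower (42 of 433). A direct repeat of it with 4 bases between (DR4) was found in 1 window of all and in none of those of the called genes, which says only that these letters are not in the windows. Several called genes, Hr among them, had no window and were not searched. Windows are shown for 3 of the 7 genes that rose without the factor and hold the hexamer, chosen after their values were seen. Capitals mark it as written on the gene's strand, as TGACCT where it lies in reverse. Klhl33 (chr14:50897434-50897733, minus strand) rose from 13.9 to 35.7 CPM, Mb, the myoglobin gene (chr15:77022738-77023037, minus strand), from 10.2 to 24.8 CPM, and Mrvi1 (chr7:110946138-110946437, minus strand) from 9.84 to 34.9 CPM in the means.
Klhl33: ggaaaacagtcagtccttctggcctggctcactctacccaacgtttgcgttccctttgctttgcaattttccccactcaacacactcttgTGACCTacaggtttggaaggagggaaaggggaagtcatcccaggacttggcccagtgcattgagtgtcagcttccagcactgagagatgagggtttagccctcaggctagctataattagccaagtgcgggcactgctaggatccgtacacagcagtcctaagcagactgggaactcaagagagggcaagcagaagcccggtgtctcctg
Mb: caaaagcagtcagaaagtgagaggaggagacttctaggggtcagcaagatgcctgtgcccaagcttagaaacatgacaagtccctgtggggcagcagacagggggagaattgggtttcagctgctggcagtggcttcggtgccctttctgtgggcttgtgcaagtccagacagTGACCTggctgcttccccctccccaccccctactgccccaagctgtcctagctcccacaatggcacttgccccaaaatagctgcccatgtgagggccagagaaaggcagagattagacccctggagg
Mrvi1: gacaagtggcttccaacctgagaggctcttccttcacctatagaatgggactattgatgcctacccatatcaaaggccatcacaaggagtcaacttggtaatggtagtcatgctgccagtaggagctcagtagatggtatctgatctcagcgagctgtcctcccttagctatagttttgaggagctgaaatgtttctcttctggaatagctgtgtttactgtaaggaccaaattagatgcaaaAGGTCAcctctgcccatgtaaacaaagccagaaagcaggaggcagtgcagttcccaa
The hexamer begins 91 bases into the window in Klhl33, 174 in Mb and 244 in Mrvi1, and a match is a description of letters, not of binding. Of the exonic bases of Mb, 31.9% are shared with another gene, so its counts are uncertain.

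Thra and Thrb, the receptor genes, did not pass in either fit. Thra measured 62.6, 78.2 and 86.7 CPM in PTU and 56.9, 45.8, 69.7 and 73.6 CPM in PTU_TH, overlapping groups (log2 −0.23 ± 0.08 SE with the factor, edgeR adjusted p = 0.0825). Thrb measured 556, 195 and 255 CPM in PTU and 416, 577, 270 and 225 CPM in PTU_TH. Its slope on the factor was 1.60 (edgeR adjusted p = 1.66e-11), and its log2 difference between the groups was 0.05 ± 0.07 SE (edgeR adjusted p = 0.802). Thrb is itself longer than 100 kb and so among the genes that make up the factor. Its difference was 0.15 among the libraries with Y-linked counts and −0.15 among those without. Of 18 genes of receptors, cofactors, transport and deiodination, 3 rose with the factor (16.7%, against 4.17% of all genes) and 1 fell (5.56%, against 2.59%), not all of which are reported singly, and none passed without it. The coactivator genes Ncoa3 (log2 0.50, edgeR adjusted p = 0.000135) and Ncoa1 (0.37, edgeR adjusted p = 0.000468) rose by 1.41-fold and 1.30-fold. Dio2, the activating deiodinase, was at 0.358 to 1.73 CPM over the 7 libraries with overlapping groups (log2 −0.78, edgeR adjusted p = 0.358), and Dio3 was too low to be tested.

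Other large rises are given by the naming rule, and whether they share functions was not tested. Tesc, an EF-hand calcium-binding protein, measured 10.8, 13.3 and 13.0 CPM in PTU and 36.7, 32.9, 35.5 and 35.6 CPM in PTU_TH (log2 1.55, edgeR adjusted p = 8.44e-08 with the factor and 0.00251 without). It had nearly the same level in all injected mice and no slope on the factor beyond its error (0.04, edgeR adjusted p = 0.818). Frmpd1, a scaffold with FERM and PDZ domains, had the smallest p of these genes with the factor. It measured 108, 77.2 and 75.8 CPM in PTU and 262, 292, 216 and 216 CPM in PTU_TH (log2 1.47 ± 0.07 SE, edgeR adjusted p = 1.16e-10 with the factor and 0.0451 without). Cyp11a1, the cholesterol side-chain cleavage enzyme of steroid synthesis, rose from 1.56 ± 0.90 to 8.73 ± 2.24 CPM, a log2 difference of 2.47 with the factor (edgeR adjusted p = 9.57e-06; 0.0730 without). It overlaps Gm17322, a predicted gene named after its values were seen, which also rose (log2 3.10 with the factor). Gm17322 lies 35176 bases from Sema7a. Of the exonic bases of Cyp11a1, 3.02% are shared with another gene, so its low counts are uncertain. Also above 2.7-fold with the factor were the endocytic adaptor Dab2 (4.16-fold), the uracil-DNA glycosylase Ung (3.88-fold), the transporter Slc35g1 (3.81-fold), Mrvi1, a partner of IP3 receptors (3.43-fold), the pseudokinase Trib1 (2.96-fold), the ubiquitin ligase Trim67 (2.88-fold) and the matrix protein Sned1 (2.74-fold). Fzd8, a Wnt receptor, rose 3.92-fold (2.11 ± 0.89 to 7.61 ± 3.81 CPM) and Frat2, an inhibitor of the kinase GSK3, 3.17-fold (2.56 ± 1.57 to 6.96 ± 1.14 CPM), with edgeR adjusted p of 5.66e-05 and 0.000767. Neither passed without the factor (edgeR adjusted p = 0.182 and 0.265). Lingo3, a leucine-rich repeat membrane protein, rose 3.11-fold with the factor (edgeR adjusted p = 4.01e-05; 0.201 without).

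Ion channel genes included both large and small changes. Of 28 sodium, calcium and HCN channel genes, 7 rose with the factor (25%, against 4.17% of all genes) and 0 fell, with a list median of 0.08. Without the factor Cacnb3 alone was called. Cacnb3, a beta subunit of voltage-gated calcium channels, measured 23.0, 35.7 and 31.3 CPM in PTU and 94.8, 94.2, 103 and 95.9 CPM in PTU_TH, a 3.38-fold rise (edgeR adjusted p = 3.75e-09). Scn4b, a sodium channel beta subunit associated with resurgent current, measured 68.2, 114 and 124 CPM in PTU and 158, 114, 171 and 220 CPM in PTU_TH. The groups overlapped, because PTU_TH replicate 2 lay just below PTU replicate 6 and below PTU replicate 7. With the factor the rise was 1.76-fold (log2 0.82 ± 0.07 SE, edgeR adjusted p = 4.88e-07), and without it the log2 difference was 0.74 ± 0.20 (edgeR adjusted p = 0.316). The pore-forming calcium channel genes Cacna1i (T-type, 1.45-fold, edgeR adjusted p = 0.00107) and Cacna1a (P/Q-type, 1.33-fold, edgeR adjusted p = 0.00164) rose with the factor, with Cacna1d, Cacna2d2 and Hcn2. Cacna1a lost its call without PTU replicate 5 (edgeR adjusted p = 0.0942).

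Of 53 potassium channel genes 14 rose (26.4%, against 4.17% of all genes) and 6 fell (11.3%, against 2.59%) with the factor, and their median was 0.06. None of the 53 was called without the factor, and their level was not matched to that of all genes. Kcng4, a silent subunit that modifies Kv2 channels, rose most among the named members. It measured 36.6, 61.2 and 71.0 CPM in PTU and 126, 83.0, 135 and 175 CPM in PTU_TH, groups that did not overlap (2.51-fold, edgeR adjusted p = 7.27e-09; 0.0936 without the factor). Kcnc1, which encodes the Kv3.1 channel of fast spiking, measured 945, 1020 and 1154 CPM in PTU and 1347, 1363, 1342 and 1587 CPM in PTU_TH (1.39-fold, edgeR adjusted p = 0.000114; 0.440 without the factor). Kcnc2, which encodes Kv3.2, fell by 0.26 on the log2 scale (edgeR adjusted p = 0.0166). It ranged from 1033 to 1598 CPM in PTU and from 898 to 1377 CPM in PTU_TH, overlapping groups. The inward rectifier genes Kcnj9 (1.41-fold, edgeR adjusted p = 5.15e-05) and Kcnj6 (1.35-fold, edgeR adjusted p = 0.000294) both rose, although their slopes on the factor were opposite (−0.19 and 1.36). Kcnd1, Kcnd3, Kcnh3, Kcnq5 and Kcnip4 fell with Kcnc2.

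Of 24 genes of calcium stores and buffers, 7 rose (29.2%, against 4.17% of all genes) and 3 fell (12.5%, against 2.59%) with the factor, and Tesc and Camk1 alone passed without it. Besides Tesc, the plasma membrane calcium pump gene Atp2b2 measured 684, 760 and 762 CPM in PTU and 1019, 922, 934 and 1025 CPM in PTU_TH (1.35-fold, edgeR adjusted p = 0.000122). The ryanodine receptor gene Ryr2 rose 1.32-fold (edgeR adjusted p = 0.000481) and Ryr1, Atp2a2 and Camk2b also passed. Camk1, the gene of a kinase activated by calmodulin, fell in both fits, from 150, 193 and 189 CPM in PTU to 98.0, 93.8, 114 and 111 CPM in PTU_TH (log2 −0.71, edgeR adjusted p = 1.17e-06 with the factor and 0.0261 without). Calb1, the gene of the buffer calbindin, and Slc8a1, a sodium/calcium exchanger gene, fell with the factor.

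Pvalb itself rose. It measured 97.0, 91.5 and 109 CPM in PTU and 145, 125, 120 and 143 CPM in PTU_TH, groups that did not overlap (1.36-fold, log2 0.45 ± 0.08 SE, edgeR adjusted p = 0.00186; 0.277 without the factor). Without PTU replicate 5 its edgeR adjusted p was 0.0512. Among 28 genes typical of these neurons, 7 rose (25%, against 4.17% of all genes) and 5 fell (17.9%, against 2.59%) with the factor, with a median of 0.08. None of the 28 passed without the factor. Those that rose included Pvalb, Kcnc1, Kcna1, a Kv1 channel gene (1.30-fold, edgeR adjusted p = 0.00275), Syt2, a calcium sensor of release (1.25-fold, edgeR adjusted p = 0.00551), Nefh and Vwc2. Those that fell were Tac1, Kcnc2, Erbb4, Nxph1 and Cntnap4. The members thus moved in both directions.

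Perineuronal net genes were led by Acan, which encodes aggrecan. It measured 49.3, 51.5 and 46.1 CPM in PTU and 82.6, 87.4, 78.1 and 88.9 CPM in PTU_TH (1.74-fold, edgeR adjusted p = 3.74e-06 with the factor and 0.0422 without). Both groups were tight and far apart. Of 21 net genes, 5 rose with the factor (23.8%, against 4.17% of all genes; median 0.08) and Acan alone without it. With Acan they were the hyaluronan synthase gene Has3 (1.44-fold, edgeR adjusted p = 0.0138), the link protein gene Hapln4 (1.18-fold, edgeR adjusted p = 0.0256), the proteoglycan gene Bcan (1.17-fold, edgeR adjusted p = 0.0242) and Tnr. The calls of Has3, Bcan and Hapln4 were lost in 3, 4 and 6 of 7 omissions (edgeR adjusted p of up to 0.143, 0.256 and 0.282, each without PTU replicate 5). Of 38 collagen, laminin and integrin genes, 4 rose (10.5%, against 4.17% of all genes) and 2 fell (5.26%, against 2.59%) with the factor, with a median of −0.02, and none passed without it. Itga7 rose from 53.5, 75.7 and 63.3 CPM to 93.7, 85.4, 112 and 117 CPM (1.66-fold, edgeR adjusted p = 6.80e-06; 0.0588 without the factor) and Col24a1 rose 1.43-fold (edgeR adjusted p = 0.000476). Itga9, another integrin subunit gene, fell by 0.38 on the log2 scale (edgeR adjusted p = 0.0146, and 0.396 without PTU replicate 5). It was called in 5 of 7 omissions.

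Of 52 axon guidance genes, 7 rose (13.5%, against 4.17% of all genes) and 1 fell (1.92%, against 2.59%) with the factor, with a median of 0.02. Sema7a and Plxna3 alone passed without it. After Sema7a, Ephb1, an Eph receptor gene, rose 2.24-fold (7.12, 4.22 and 6.72 CPM in PTU and 15.5, 20.8, 11.7 and 10.04 CPM in PTU_TH, edgeR adjusted p = 0.000444). Robo3, a receptor of midline guidance, rose 4.23-fold from a low level (1.41 ± 0.76 to 5.18 ± 3.88 CPM, edgeR adjusted p = 0.00125). PTU_TH replicate 1 was below PTU replicate 6 for Robo3, so its groups overlapped. Plxna3, an X-linked semaphorin receptor gene, fell from 35.2, 52.1 and 46.3 CPM to 19.6, 19.5, 23.1 and 27.4 CPM (log2 −0.91, edgeR adjusted p = 1.11e-05 with the factor and 0.0379 without), while its relatives Plxna1 and Plxna2 rose with the factor. The sign thus differed between genes of 1 receptor family, and a difference between them was not tested.

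Of 15 neuropeptide genes tested, 5 fell (33.3%, against 2.59% of all genes) and 1, Pnoc, rose (6.67%, against 4.17%) with the factor, and the list's median was −0.47. Vgf, a secreted peptide precursor, measured 64.0, 129 and 146 CPM in PTU and 39.8, 32.0, 51.5 and 90.5 CPM in PTU_TH. These groups overlapped, since PTU replicate 5 was below PTU_TH replicate 4. At a like long-gene share they were apart: 129 and 146 CPM in PTU replicates 6 and 7 stood against 51.5 and 90.5 CPM in PTU_TH replicates 3 and 4. With the factor Vgf fell by 0.93 on the log2 scale (edgeR adjusted p = 1.33e-05; 0.396 without). Tac1, the substance P precursor, measured 72.8, 108 and 145 CPM in PTU and 55.4, 39.4, 63.9 and 97.6 CPM in PTU_TH (log2 −0.65, edgeR adjusted p = 0.000516; 0.494 without the factor). Crhbp, which binds corticotropin-releasing hormone, fell from 57.4 ± 20.7 to 31.1 ± 10.6 CPM (log2 −0.75, edgeR adjusted p = 9.48e-05). Cck and Cort also fell, Cck with a call lost in 4 of 7 omissions (edgeR adjusted p of up to 0.194, without PTU replicate 7). The list's median slope on the factor was −0.86, and none of its members passed without the factor, where the median was −0.50. Cck is also a marker of other interneurons, which summed to 122 to 180 CPM in PTU and 84.3 to 173 CPM in PTU_TH, and the part of those cells was not tested.

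Of 25 immediate early genes, 2 rose (8%, against 4.17% of all genes) and 2 fell (8%, against 2.59%) with the factor, with a median of −0.10. None passed without the factor. Jun, a subunit of the AP-1 transcription factor, fell from 7.38, 13.4 and 15.8 CPM to 6.09, 3.66, 5.17 and 8.64 CPM (log2 −0.90, edgeR adjusted p = 0.00383, and 0.0510 without PTU replicate 5). Nr4a1, an orphan nuclear receptor gene, fell from 23.3, 24.4 and 23.5 CPM to 14.5, 21.1, 15.0 and 14.6 CPM (log2 −0.56, edgeR adjusted p = 0.0172). It was called in 3 of 7 omissions, with an edgeR adjusted p of up to 0.0707 without PTU replicate 6. Ier5 and Gadd45b, stress-responsive genes, rose 1.60-fold and 1.69-fold (edgeR adjusted p = 0.0116 and 0.0318). Their calls were lost in 2 and 4 of 7 omissions, with edgeR adjusted p of up to 0.112 and 0.180 without PTU_TH replicate 4. The 4 changes had no common direction.

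Genes of synaptic transmission changed in both directions with the factor, and none of them passed without it. Of 25 GABA genes 3 rose (12%, against 4.17% of all genes) and 4 fell (16%, against 2.59%). Of 24 glutamate receptor genes 1 rose (4.17%) and 2 fell (8.33%), and of 30 vesicle release genes 2 rose and 2 fell (6.67% each). The extrasynaptic GABA-A receptor gene Gabrd rose 1.35-fold (374, 520 and 497 CPM in PTU and 559, 456, 602 and 770 CPM in PTU_TH, overlapping groups; edgeR adjusted p = 0.000227). Gabrb1, another GABA-A subunit gene, fell by 0.36 on the log2 scale (edgeR adjusted p = 0.0106). The glutaminase gene Gls2 rose 1.47-fold (edgeR adjusted p = 0.000186). Rims1, an active zone scaffold gene, rose 1.34-fold (edgeR adjusted p = 0.000136), and Rab3b, a vesicle GTPase gene, fell from 159 ± 16.3 to 118 ± 9.42 CPM (edgeR adjusted p = 0.00220). Among glutamate receptors Gria1 and Grm7 fell by 0.24 and 0.23 on the log2 scale and Grik3 rose by 0.32 (edgeR adjusted p = 0.0120, 0.0456 and 0.0304). Grm7 was called in none of the 7 omissions. Grik3 was called in 3 of 7, with an edgeR adjusted p of up to 0.32 without PTU replicate 5.

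Genes of metabolism and housekeeping were read beside the same shares of all genes, 4.17% higher and 2.59% lower with the factor, and none of them passed without it. Of 64 respiratory chain genes Ndufa1 alone rose (1.56% of the list, 1.43-fold, edgeR adjusted p = 0.0302). It was called in 2 of 7 omissions, with an edgeR adjusted p of up to 0.284 without PTU replicate 5. The list's median was 0.10. The level of this list went with the libraries: its median slope on the factor was −0.40, and 44 of its genes had a called negative slope. Of 31 cholesterol and fatty acid genes Scd2, a desaturase gene, rose (3.23% of the list; 1.20-fold, edgeR adjusted p = 0.0347), and of 12 heat shock genes Hsph1 did (8.33%; 1.30-fold, edgeR adjusted p = 0.0353). Both lost their call in 5 of 7 omissions, with edgeR adjusted p of up to 0.161 for Scd2 without PTU replicate 6 and 0.157 for Hsph1 without PTU replicate 7. All 12 heat shock genes had a positive difference with the factor (median 0.20) and 11 without it (median 0.12). Their median slope on the factor was −0.66. Of 10 neurofilament and cytoskeleton genes tested 2 rose (20%). Nefh (1.33-fold, edgeR adjusted p = 0.00707) and Ina, the internexin gene (1.31-fold, edgeR adjusted p = 0.00871, and 0.158 without PTU replicate 5), rose, and Nefl and Tubb3 were listed at 0 in every library. Ina was called in 5 of 7 omissions. Of 46 ribosomal protein genes edgeR called 0, with 2 at an unadjusted p under 0.05, and DESeq2 and limma-voom called 0 too. The smallest p was that of Rps14 (log2 0.26, edgeR adjusted p = 0.192).

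**Figure D4:**
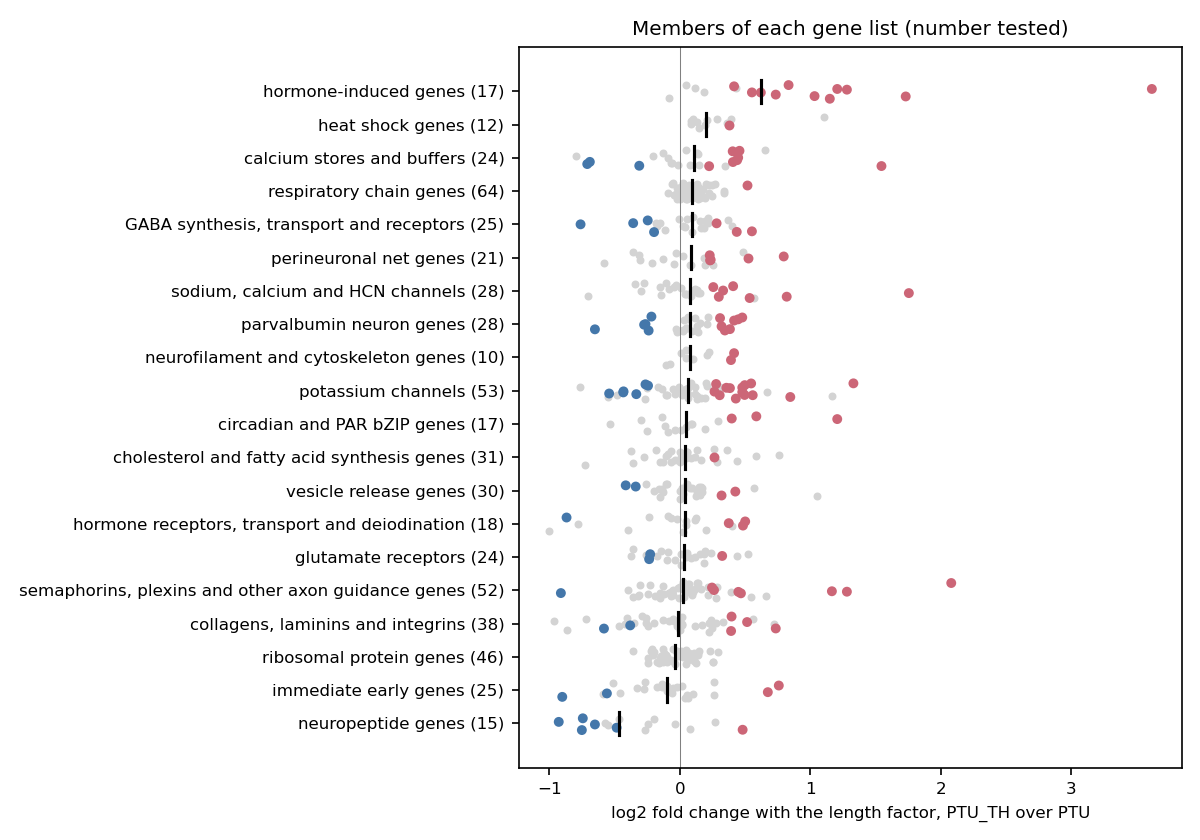
Log2 fold change of PTU_TH over PTU with the factor (x axis) for each tested member of the gene lists (rows), with called members in colour and the list's median as a bar. The hormone-induced genes have a median of 0.62 and the neuropeptide genes one of −0.47, and the medians of the channel, net and synaptic lists lie within about 0.1 of 0.

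Of the genes with the largest falls, 4 passed without the factor. Srpk3, an X-linked protein kinase gene of the SR family, measured 76.9, 95.9 and 102 CPM in PTU and 39.7, 26.4, 47.8 and 35.9 CPM in PTU_TH (log2 −1.23 with the factor, edgeR adjusted p = 1.85e-06; 0.0202 without). Izumo4 fell from 45.8, 69.0 and 61.9 CPM to 30.7, 28.2, 36.8 and 36.6 CPM (log2 −0.75, edgeR adjusted p = 2.06e-05; 0.0477 without). With Camk1 and Plxna3 they made up the 4, and their groups were fully apart. Further genes passed only with the factor. Myof, a membrane repair protein of the ferlin family, fell from 16.7, 17.4 and 12.9 CPM to 7.59, 5.54, 7.33 and 6.43 CPM (log2 −1.21, edgeR adjusted p = 0.000129). Ppfibp1, which encodes liprin beta 1, fell from 31.0 ± 3.29 to 15.5 ± 3.15 CPM (log2 −0.97, edgeR adjusted p = 0.000136), and neither gene overlapped between the groups. Ltbp4, a binding protein of latent TGF beta, fell by 1.14, Zcchc12 by 1.23, the receptor guanylyl cyclase gene Gucy2g by 1.00, Lacc1 by 1.01, Agbl1 by 0.92 and the dynein gene Dnah7b by 0.92 on the log2 scale, with edgeR adjusted p from 0.000777 for Ltbp4 to 0.0290 for Dnah7b. These 6 all lost their call without PTU replicate 5, where the edgeR adjusted p was 0.118 for Ltbp4 and 0.465 for Agbl1. Dnah7b was called in 2 of 7 omissions, Agbl1 in 5 and the others in 6.

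The level, length and chromosome of the called genes were compared with those of all genes tested, with no test. The median level was 75 CPM for the genes that rose with the factor, 48.7 CPM for those that fell and 24.1 CPM for all tested. Their median lengths were 40.5, 30.8 and 23.2 kb. The share called higher grew along the length classes, from 2.25% of genes up to 10 kb through 3.71%, 5.08% and 6.86% to 7.43% of genes over 300 kb, and the share called lower was 1.90%, 2.53%, 2.35%, 3.58% and 7.07%. Level, and with it the power to call a gene, was not held fixed in these shares. Without the factor the median log2 difference ran from −0.07 for genes up to 10 kb to 0.09 for those over 300 kb, and with it these values were −0.02 and −0.02. The X chromosome held 1.88% of the genes that rose and 6.06% of those that fell, against 3.56% of all tested. Srpk3, Plxna3 and Zcchc12 were among its lowered genes. Y-linked counts were present in 2 of 3 PTU and 2 of 4 PTU_TH libraries.

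The genes that responded to the hormone were then read in an independent set of libraries, Mut against Ctrl, in which the hormone was not altered but a dominant negative receptor was expressed. Of 16949 genes tested there, 59 were called (0.348%), 38 lower (0.224%) and 21 higher (0.124%). Of the 637 genes that rose after the injection 612 were tested, 569 of them (93.0%) had a negative difference in Mut and 33 were called lower. Of the 396 that fell 381 were tested, 323 had a positive difference and 12 were called higher. Over all 14048 genes tested in both, 49.0% were negative in Mut. The injection and the mutation share no libraries, and the values are a description with no test of the set. Y-linked counts were uneven here too. They summed to 2.45, 446.5, 3.19 and 2.44 CPM in Ctrl replicates 1 to 4. In Mut replicates 1 to 4 they summed to 416.3, 475.5, 403.4 and 2.995 CPM. Genotype and the presence of Y-linked counts thus largely went together, and the part of the latter was not tested. Read from the other side, 33 of the 36 tested genes called lower in Mut were called higher after the injection with the factor, against 4.17% of all genes. Of the 19 called higher in Mut 12 were called lower, against 2.59% of all genes. All 19 had a negative difference, where the median log2 difference over all genes was −3.31e-05.

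**Figure D5:**
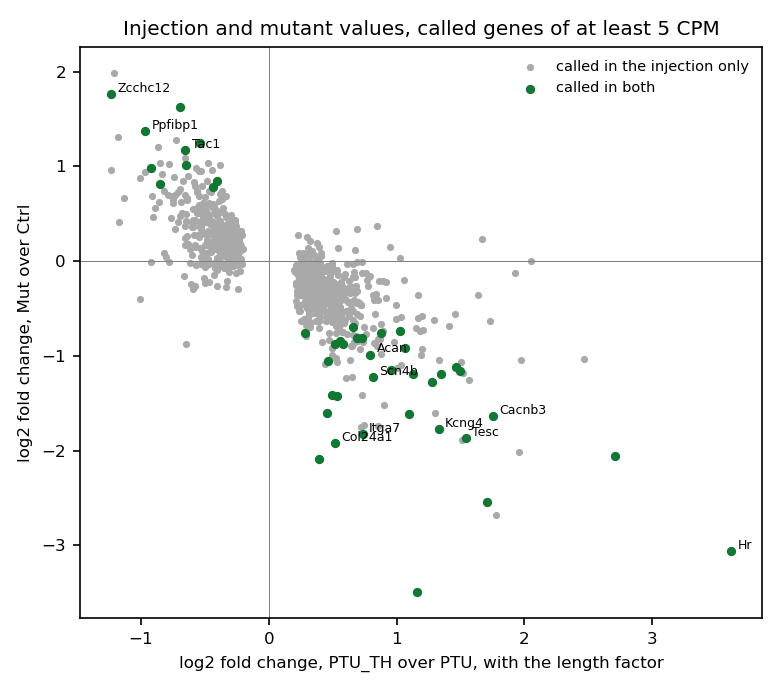
Log2 fold change of Mut over Ctrl (y axis) against that of PTU_TH over PTU with the factor (x axis) for 937 genes called after the injection with a mean of at least 5 CPM, with 43 called in both comparisons marked. Of 582 genes to the right of 0, 549 lie below 0 on the y axis, and of 355 to the left 303 lie above it.

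Among the named genes the size of the difference was often alike and sometimes not. Hr fell from 14.1 ± 1.45 CPM in Ctrl to 1.76 ± 1.62 CPM in Mut (n = 4 and 4, log2 −3.06, edgeR adjusted p = 0.0259), beside its rise by 3.62 after the injection. The log2 difference in Mut was −1.64 for Cacnb3, −1.87 for Tesc, −1.28 for Sema7a, −1.12 for Frmpd1 and −0.99 for Acan (edgeR adjusted p from 0.00708 to 0.0259), beside rises of 1.76, 1.55, 1.28, 1.47 and 0.80 after the injection. For Itga7 and Col24a1 the difference in Mut was larger in size, −1.82 and −1.92 on the log2 scale (edgeR adjusted p = 0.000162 and 0.000359) beside rises of 0.73 and 0.51. Kcng4 and Scn4b fell too (−1.77 and −1.23, edgeR adjusted p = 0.0136 and 0.00116), beside rises of 1.33 and 0.82. Other genes that rose after the injection did not pass in Mut, and their differences there ranged widely. Mrvi1, Ung, Trib1 and Trim67 were at −2.68, −2.02, −1.26 and −1.18 on the log2 scale (edgeR adjusted p from 0.0576 to 0.341). Dbp and Klf9 were at −0.73 and −0.59 (edgeR adjusted p = 0.435 and 0.395). Dab2 was at 0.0036 ± 0.34 SE, Slc35g1 at −0.13 ± 0.47, Frat2 at 0.24 ± 0.38 and Lingo3 at −0.35 ± 0.43. For these the edgeR adjusted p ran from 0.920 to 0.999. Of the lowered genes, Tac1 rose by 1.17 in Mut (edgeR adjusted p = 0.0243), Ppfibp1 by 1.38 (edgeR adjusted p = 0.0380), Zcchc12 by 1.76 (edgeR adjusted p = 0.0112) and Agbl1 by 0.99 (edgeR adjusted p = 0.0280). Myof and Vgf, at 1.99 and 0.98, did not pass (edgeR adjusted p = 0.0784 for both). The differences between the 2 comparisons were not tested, because they rest on tables with separate gene lists.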

How the data were processed

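Per the labels' protocols, nuclear RNA was amplified by SMART-Seq v4, libraries were prepared with Nextera XT, and single reads of 75 bases were taken on a NextSeq500 instrument. The authors deposited raw counts per gene for each library. Bowtie2 2.5.3, HTSeq and mm10 (GRCm38) are named per the submitters' processing notes. The strand setting, counting mode and annotation are not given in these sources and the kits do not mark strand, so counts of overlapping genes are uncertain. Among the named genes the share of exonic bases held in common with another gene was 20.1% for Agbl1, 19.6% for Sned1, 18.0% for Dbp and 14.1% for Ina. Amplified reads carry no molecular identifiers, so library totals of 12957838 to 19141683 counts bound counting error only.

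The 7 tables of PTU and PTU_TH hold 55341 genes, and lengths and positions from GENCODE M21 (GRCm38) were matched to 55220. CPM are counts relative to a library's total, without further scaling. Tests used edgeR 4.0.16 in R 4.3.3 (TMM, filterByExpr with minimum count 10, robust quasi-likelihood, Benjamini-Hochberg over all genes tested). A gene was called at an adjusted p under 0.05. Residual degrees of freedom were 5 without the factor and 4 with it. The factor is read from the same counts, so a true change of long genes would be partly taken up by it. Mut and Ctrl were fitted alone in the same way. The scripts were tested on simulated data.

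The groups, the 21 function lists, the 7 marker lists and the naming rule were chosen with earlier results of these data known. The rule took up to 12 rises and 8 falls without the factor and up to 12 of each with it, at a mean of at least 5 CPM and leaving out predicted models. It added up to 4 called members of each function list (or the member of smallest p) and 8 set genes, which gave 84 tested genes. Some genes that the lists count are not reported here. Other names are members of a count or are said to be chosen later. Alternatives were DESeq2 1.42.0, limma-voom (limma 3.58.1), RLE and upper quartile scaling, other filters, a length offset, other factors (sva 3.50.0 among them) and the omission of each library.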

Additional observations from a re-analysis of the deposited data

Results flagged for a closer look

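In the 4 PTU_TH mice the highest and lowest value of each of the 84 named genes was compared with the others. A value was flagged when its gap to the nearest mouse took more of the group's whole range than Dixon's critical value for 4 samples allows. Flagged values stayed in the fits. Chance flags about 1 in 20 groups. Of the 84 genes 2 met this in PTU_TH. Kcnc1, the Kv3.1 channel gene, was at 1587 CPM in PTU_TH replicate 4 against 1342 to 1363 CPM in the other 3 mice. Nr4a1, an orphan nuclear receptor gene, was at 21.1 CPM in PTU_TH replicate 2 against 14.5 to 15.0 CPM.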

How the results depend on the processing

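Directions were stable and counts were not. Of the named genes' differences, Thrb alone changed sign, with the factor, from 0.05 to −0.036 without PTU replicate 6 (−0.036 to 0.14 over the omissions). Without the factor (39 higher, 4 lower), DESeq2 called 174 and 72 (70.7% higher, against 90.7%), limma-voom 128 and 43 (74.9%), an offset smoothed on gene length 150 and 37 (80.2%) and no filter on low counts 53 and 10. Omitting 1 library gave 5 to 27 higher and 0 to 4 lower, with 5 and 0 without PTU_TH replicate 1. With the factor (637 higher, 396 lower), Y-linked counts as the factor gave 241 and 94. Leaving out genes with shared exonic bases, which tests fewer genes, gave 386 and 243. Omissions gave 249 to 621 higher and 89 to 401 lower, with the lowest without PTU replicate 5, and 515 and 244 without PTU_TH replicate 4 and 451 and 222 without PTU replicate 7. The other settings stayed within 1.5 times. For Mut against Ctrl (21 higher, 38 lower) DESeq2 called 163 and 195 and the long gene factor 92 and 122. Omissions gave 2 to 39 higher and 7 to 64 lower, the most without Mut replicate 2. The cause of these differences was not tested. PTU_TH and PTU share no replicate numbers, so their mice cannot be paired. With the replicate block, Mut against Ctrl gave 30 higher and 52 lower. With 3 and 4 libraries, differences below about 0.2 on the log2 scale were not called for any gene.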
